A study of Mus musculus with 6 samples.

Results

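Genes that lie on opposite strands of the same DNA can have exons that overlap, so that each mRNA carries a stretch complementary to the other. Pairs of protein-coding genes of this kind were examined in RNA sequencing counts from mouse heart muscle cells. A feature (the row of one gene in the deposited count tables) was taken as a member where its exons shared at least 50 bases with exons of exactly 1 gene on the other strand, and that gene was also protein-coding and also in the tables. The rule used only coordinates of the GENCODE M21 annotation of the mm10 build. It found 2050 members among 46078 features, of which 45106 were nuclear features in the annotation and 21506 were nuclear and protein-coding.

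The study compared heart muscle cells labelled Acly-KD (n = 3 libraries) with cells labelled wildtype in the genotype field and control in the title (n = 3). Acly encodes ATP-citrate lyase, which makes cytosolic acetyl-CoA from citrate, and its knockdown used MyH6-Cas9 mice, named for the Myh6 gene whose promoter is active in heart muscle cells. All cells of both groups came from hearts by perfusion. The guides, the age of the mice, whether the controls carried Cas9, and whether the libraries of a group came from separate animals are not given in the sources used here, and p-values therefore speak only of how much these libraries vary, a spread that may be technical. Other cells of the heart would keep Acly under such a promoter.

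Overlapping pairs are sorted by geometry. In a tail-to-tail pair the genes converge and share their 3' ends, usually untranslated sequence downstream of the stop codon. In a head-to-head pair the genes diverge and share their 5' ends, near their promoters. In a nested pair one gene lies within the other. Such pairs are a textbook difficulty for RNA sequencing, because a read from the shared bases belongs to 1 gene or the other only by its strand. The libraries here came from a kit that marks strand, and counting such reads with the opposite strand setting gives each gene's shared bases to its partner. The setting that the authors used for strand is not stated in those sources.

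Of the 2050 members, 1149 were tail-to-tail, 673 head-to-head and 228 nested. In 1624 of them the partner had no other opposite gene either, which gave 812 reciprocal pairs: 463 tail-to-tail, 259 head-to-head and 90 nested. The other 426 members faced a partner that was itself opposite to more than 1 gene. The features left outside by the rule were 579 with 50 or more bases opposite to more than 1 gene, 2159 opposite to a gene that is not protein-coding, and 7 opposite to a protein-coding gene absent from the tables. At the threshold of the rule, the 42 features with 50 to 54 shared bases had a median of 15 reads over the 6 libraries, and the 28 features with 45 to 49 shared bases had a median of 7.5 reads.

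The overlaps can be seen in the sequences of the pairs on which the results turn. The poly(A) signal, the hexamer that directs cleavage of the 3' end, is in capitals where the last 30 bases of the transcript hold AATAAA or its common variant ATTAAA. Sequences are the sense strand of the GENCODE M21 transcript, 5' to 3', in mm10. The first 4 are the ends of the 2 tail-to-tail pairs with the most reads, and the last 3 are the ends at the pairs of the genes that passed the test below.
Acadvl, chr11:70010183-70010212 on the minus strand: taacAATAAAttttctaccaagtcactgtc
Dvl2, chr11:70012272-70012301 on the plus strand: gattagtagcatgatcaacctgcaagaggg
Pdha1, chrX:160122209-160122238 on the minus strand: aATTAAActtgtttgattcagctactttta
Map3k15, chrX:160123322-160123351 on the plus strand: aaaaATTAAActattttacctttgaggtga
Ccnd1, chr7:144929931-144929960 on the minus strand: aatctagaaAATAAAattggtaaaatctca
Phkg1, chr5:129863421-129863450 on the minus strand: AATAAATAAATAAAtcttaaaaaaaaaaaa
Sumf2, chr5:129864021-129864050 on the plus strand: gctcccagaatacatgtgctctatgccctt
The 3' end of Phkg1 lies within the last exon of Sumf2 and the reverse, and the 630 bases between these ends are noncoding in both genes. The shared exons of Acadvl and Dvl2 run from 70010183 to 70012290 in 8 blocks of 1151 bases in all, of which 860 code for Acadvl protein and none for Dvl2.

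A minority of pairs share bases that code for protein on both strands, and these carry 2 reading frames in 1 stretch of DNA. This was so in 89 of the 812 pairs. An example, chosen after its values were seen, is Zrsr1, a splicing factor gene whose coding bases lie opposite to coding bases of Commd1, a regulator of copper handling and endosomal traffic.
Zrsr1, chr11:22973900-22974102 on the plus strand: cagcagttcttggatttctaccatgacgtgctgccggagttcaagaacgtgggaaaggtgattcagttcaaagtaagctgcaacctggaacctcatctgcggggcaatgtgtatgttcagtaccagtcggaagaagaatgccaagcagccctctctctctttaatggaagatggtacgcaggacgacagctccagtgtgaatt
There 679 reads were counted at Commd1 and 42 at Zrsr1.

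The libraries were shallow in the features. Rows that name no gene took 97.4% to 97.7% of all entries, and the features kept 460222 to 799868 reads in the Acly-KD libraries and 271463 to 814765 in the controls. Members held 92210 to 158362 and 59683 to 174717 of these. Acly itself was listed at 0, 0 and 0 reads in Acly-KD libraries 1 to 3 and at 1, 5 and 6 reads in controls 1 to 3, too few to give a fold change. These reads lie at its own feature and are no measure of Acly mRNA if the counts lie on the opposite strand. The 7 heart muscle markers (Myh6, Myl2, Tnnt2, Tnni3, Actc1, Ryr2 and Pln) all had reads, with summed levels of 3918, 7988 and 14020 CPM (reads scaled to a common library size) in Acly-KD libraries 1 to 3 and of 13399, 12103 and 10376 CPM in controls 1 to 3. Markers of other heart cells had few reads at their own features, which is no measure of their mRNA if the counts lie on the opposite strand. The 4 endothelial genes summed to 6 to 54 reads in Acly-KD and 9 to 43 in control, the 4 fibroblast genes to 9 to 11 and 4 to 19, the 4 pericyte and smooth muscle genes to 8 to 64 and 18 to 51, and the 3 leukocyte genes to 0 to 5 and 4 to 10, with Ptprc at 0. Of the 3 atrial genes, summing to 9 to 16 and 5 to 31 reads, Sln was at 0. Only Nppa among them is in the second reading below. The reads taken there as Nppa mRNA were 771 to 4310 in Acly-KD and 362 to 3511 in control. Acly-KD libraries 1 and 2 stood apart in the heart muscle markers. These markers were also counted at their own features, so the same limit on strand applies to them. Features with no opposite-strand exon were low in these libraries as well, as given below. Fewer muscle cells or less of these RNAs in each cell cannot be told apart in such bulk samples, and whether either occurred was not tested. Only 1 of the 7 markers, Myl2, is in the second reading below, from counts at Ccdc63, which shares 60 bases with it. Those counts were not low in these libraries, and whether they are Myl2 mRNA was not tested.

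The counts of a pair fell mostly on 1 of its 2 features. In the 411 reciprocal pairs with at least 100 reads over all libraries, the feature with more reads held a median of 94.1% of the pair's reads, and in 254 pairs (61.8%) it held at least 90%. The median was 92.8% in 275 tail-to-tail, 95.05% in 100 head-to-head and 97.1% in 36 nested pairs. At least 90% of the reads were at 1 feature in 58.2%, 63.0% and 86.1% of these pairs. The feature with more reads is called the higher feature below and its partner the lower feature; this order was set on the sum of all 6 libraries, so the imbalance itself is a description.

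**Figure D1:**
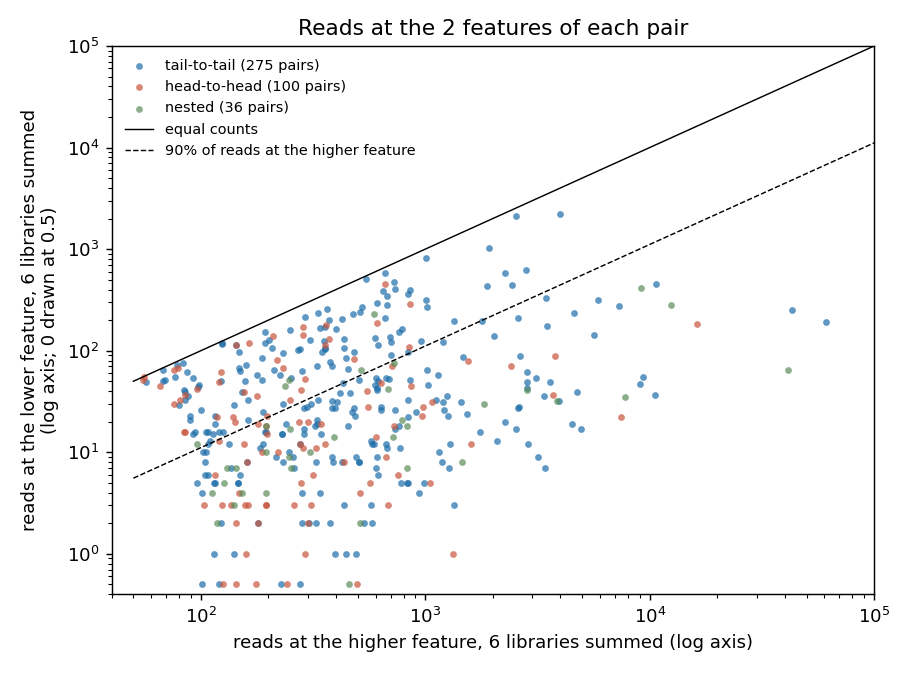
Reads at the higher feature of each reciprocal pair (horizontal, log axis) against reads at its lower partner (vertical, log axis, 0 drawn at 0.5), summed over 6 libraries, for 411 pairs with at least 100 reads coloured by geometry. The solid line marks equal counts and the dashed line 90% at the higher feature, and 254 pairs lie on or below the dashed line.

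The pair with the most reads was Dvl2, a signal transducer of the Wnt pathway, and Acadvl, the mitochondrial dehydrogenase that begins the oxidation of very long-chain fatty acids. Counts at Dvl2 were 11420, 7356 and 12204 in Acly-KD libraries 1 to 3 and 4805, 13165 and 12035 in controls 1 to 3. Counts at Acadvl were 14, 17 and 49 and 10, 64 and 36. Dvl2 thus took 99.5% to 99.9% of the pair's reads in every library, and the groups overlapped.

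The second tail-to-tail pair was Map3k15, a stress-activated kinase, with Pdha1, the catalytic alpha subunit of pyruvate dehydrogenase. Map3k15 had 8626, 5602 and 8699 reads in Acly-KD and 3311, 8736 and 7927 in control, against 27, 32 and 75 and 18, 66 and 31 at Pdha1. The share at Map3k15 was 99.1% to 99.7% over the libraries. A further abundant pair was Ap3m1, a vesicle adaptor subunit, with Vcl, the adhesion protein vinculin that anchors the costamere. Ap3m1 had 2181, 1248 and 1938 reads and 704, 2444 and 2011 reads, while Vcl had 1, 5 and 6 and 4, 12 and 9. In these 3 pairs Acadvl, Pdha1 and Vcl were the lower features. Lower by level were Wdr61 over the co-chaperone gene Dnaja4, 1700022I11Rik over the segregase gene Vcp, Inpp5e over the processing peptidase gene Pmpca, and Phykpl over the RNA-binding protein gene Hnrnpab, with 94.96% to 99.5% of the reads at the first-named feature.

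Head-to-head pairs were led by Emc8, a subunit of the endoplasmic reticulum membrane complex, with Cox4i1, a subunit of cytochrome c oxidase. Emc8 had 3061, 1626 and 3172 reads in Acly-KD and 1231, 3793 and 3378 in control, and Cox4i1 had 21, 9 and 51 and 16, 54 and 32. These genes share 154 bases in a single block (120668222 to 120668375 on chromosome 8), noncoding in both, which begins at the first base of Cox4i1.
Cox4i1, first bases, chr8:120668222-120668251 on the plus strand: ggcggggcttccctgattcccgcgatgctt
Emc8, first bases, chr8:120668092-120668121 on the minus strand: cgaaaggccgagcgggtagcagctgctttc
In the direction of transcription the representative Emc8 transcript starts after the shared block, so the overlap is with a longer annotated form of Emc8. Gm10767 and Uqcrb, a subunit of respiratory complex III, share only 50 bases, the least the rule allows, and still had 1381, 990 and 1582 and 581, 1522 and 1412 reads at Gm10767 against 0, 2 and 4 and 6, 6 and 4 at Uqcrb. Itgb3bp, a centromere protein, had 629, 445 and 853 and 226, 789 and 756 reads, and its partner Pgm1, an enzyme of glycogen metabolism, had 4, 3 and 12 and 3, 10 and 5. Next by level were Tor1aip2 over Tor1aip1, 2 related nuclear envelope proteins, Tmem189 over Cebpb, Bud23 over Dnajc30 and Kctd18 over Sgo2a, with 95.1% to 99.9% of reads at the first.

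Nested pairs were the most one-sided. Syn3, a synapsin of nerve terminals, had 6294, 5437 and 7761 reads in Acly-KD and 3166, 10381 and 8435 in control. Timp3, an inhibitor of matrix metalloproteases that lies within Syn3, had 8, 6 and 14 and 5, 23 and 8. The 1733 shared bases form 1 block and are noncoding in both genes. Ccdc127 had 1678, 1234 and 2110 and 737, 1682 and 1731 reads, against 47, 34 and 104 and 29, 113 and 88 at Lrrc14b. Ackr4, an atypical chemokine receptor, had 1467, 1083 and 1716 and 602, 1579 and 1304 reads, against 0, 1 and 8 and 5, 20 and 1 at Acad11, an acyl-CoA dehydrogenase. Within each of these 3 pairs the order of the features was the same in all 6 libraries. Lower by level were Gm9747 over Irs1, Sycp3 over Chpt1, and Gpr17 over Lims2, with 98.4% to 99.5% at the first-named.

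**Figure D2:**
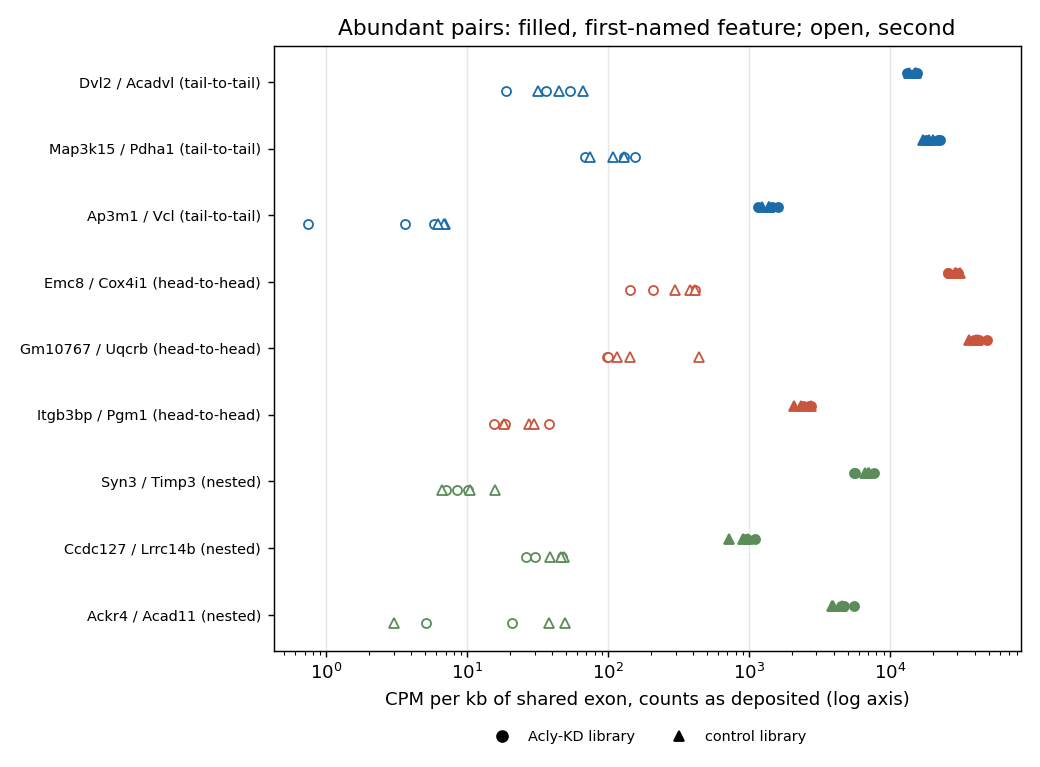
CPM per kb of shared exon (log axis, counts as deposited) at the first-named feature (filled) and the second-named feature (open) of 3 abundant reciprocal pairs of each geometry, with circles for Acly-KD and triangles for control libraries. A library with 0 reads is not drawn, and in each of these pairs all drawn filled symbols lie to the right of all open ones.

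Pairs in which reads were evenly divided were few. The higher feature held less than 60% of the reads in 27 of the 411 pairs, 19 of them tail-to-tail, 8 head-to-head and 0 nested. The following example was chosen after its values were seen. Thra, the thyroid hormone receptor alpha gene, overlaps Nr1d1, the clock gene of REV-ERB alpha, tail to tail in a well-known arrangement. Thra had 106, 45 and 89 and 44, 153 and 105 reads, and Nr1d1 had 81, 51 and 98 and 38, 105 and 138. The 263 bases that they share include 197 that code in both.

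Among members in no reciprocal pair, 37 of 426 had no reads and the median was 24 reads, yet they held 27.7% of all member reads. The largest part of that was Gm20721, a nested feature opposite to 1469 bases of Gnas, the gene of the stimulatory G protein alpha subunit. It alone had 96860 reads, 12.4% of all member reads, with 19387, 11947 and 18943 in Acly-KD and 7307, 20445 and 18831 in control. Gnas had 42, 30 and 109 and 26, 93 and 61. Zcchc17 shares 81 bases with Fabp3, the heart fatty acid binding protein gene, and had 4531, 2548 and 4828 and 2121, 4998 and 4117 reads against 39, 53 and 291 and 69, 132 and 103 at Fabp3. These features were also chosen after their values were seen.

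Read density was higher in members than in protein-coding features with no opposite-strand exon. The counts give no positions of reads within a feature. Over all members the median was 80.4 reads per kb of shared exon (6 libraries summed). For higher features it was 284 and for lower features 21.7. The 16274 nuclear protein-coding features with no exon opposite to any gene had a median of 0 reads per kb of exon, and 53.5% of them had no read at all, against 11.4% of members (234). Pooled over all lower features, the density was 13.4, 9.14 and 19.0 reads per kb of shared exon in Acly-KD libraries 1 to 3 and 6.45, 20.1 and 15.4 in controls 1 to 3. Features with no opposite exon had 0.289, 0.258 and 0.737 and 0.233, 0.727 and 0.520 reads per kb of exon in the same libraries. The 2 densities use different lengths, since members are divided by their shared bases only. Divided by whole exonic length, members had 15.1, 9.42 and 16.2 and 6.10, 17.9 and 15.2 reads per kb, still far above features with no opposite exon in each library.

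Longer overlaps had more reads, although weakly. Across pairs, shared length and reads had a Spearman correlation of 0.33 for the higher feature (764 pairs with reads there) and 0.25 for the lower (663 pairs). These are correlations across genes, which share libraries and depth and are no replicates. Tail-to-tail pairs shared a median of 420 bases, nested pairs 341 and head-to-head pairs 200. The pairs with the longest overlap of their class were of low or moderate level. Ubxn6 and Chaf1a share 4648 bases tail to tail, with 80 and 17 reads in all. Kctd18 and Sgo2a, a protector of centromeric cohesion, share 2455 bases head to head, with 1331 reads and 1 read. Gnpnat1, an enzyme of hexosamine synthesis, and the phosphatase gene Styx share 3878 bases, with 91 reads and 0.

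Most shared bases were untranslated. Of all bases shared in reciprocal pairs, 64.2% were noncoding in both genes and 2.55% coding in both. Noncoding in both were 69.0% in tail-to-tail, 55.6% in head-to-head and 50.9% in nested pairs. Among pairs with at least 100 reads, the shared bases coded only in the lower feature in 141 pairs and only in the higher feature in 61. This was seen in 90 against 47 tail-to-tail, 41 against 9 head-to-head and 10 against 5 nested pairs. In 269 of the 463 tail-to-tail pairs the 3' end of the higher feature's representative transcript lay inside an exon of the lower feature, and in 283 pairs the reverse held. Representative transcripts of both genes shared bases in 314 of these pairs, with a median of 329.5 bases.

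Signals at the gene ends were counted by class. AATAAA or ATTAAA, searched on the sense strand, stood in the last 40 bases of 69.7% of 21453 nuclear protein-coding features, in 68.9% of tail-to-tail, 75.8% of head-to-head and 64.0% of nested members. Within tail-to-tail pairs it stood in 63.9% of higher and 71.3% of lower features. Promoter sequence from RefSeq (GRCm38.p6, 250 bases upstream of the start) was matched by symbol for 887 of 1149 tail-to-tail, 523 of 673 head-to-head and 154 of 228 nested members. The median GC content was 60.4% for head-to-head and 58.8% for tail-to-tail members, 56.2% for nested members and 56.0% for all 16338 matched features. An observed-to-expected CpG ratio of at least 0.6 was found in 70.2%, 61.3%, 50% and 47.1% of these. TATAAA on either strand stood in 6.88%, 5.75%, 11.7% and 11.8%. These matches are descriptions of the letters in these windows.

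As deposited, no member passed the test between Acly-KD and control with all 6 libraries, and 12 passed without Acly-KD library 3. The share of all features that passed without that library is not given here, so the 12 are not read as a result about members. Of 2050 members, 790 had enough reads to be tested, and 0 passed edgeR's quasi-likelihood test at an adjusted p of 0.05, where 0% of all 2952 features tested passed. At an unadjusted p under 0.05 there were 36 members (4.56%) against 6.10% of all features, and DESeq2 called 0. The log2 fold change of Acly-KD over control was above 0 in 424 of the 790, with a median of 0.03, beside a median of -0.04 over all features. By class the median was 0.06 in tail-to-tail (528), -0.07 in head-to-head (189) and 0.02 in nested members (73). The 3 Acly-KD libraries lay entirely above or below the 3 controls in CPM for 96 members (12.2%), 56 higher and 40 lower, beside 11.4% of all features. The largest departures by p as deposited were LTO1, Cdc73, Lrrc71, 4930442H23Rik and Ccnc above control, with log2 fold changes of 0.83, 1.88, 0.60, 1.08 and 0.51, and Sumf2, Tmem189, Ppp2r2d, Tmem184a and Stk11 below, with -1.12, -0.83, -1.18, -0.76 and -0.96. Their adjusted p-values in edgeR were 0.447 to 0.659.

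In a second reading, called the reading of mRNA here, the opposite gene received the reads of a feature where it held at least 80% of the opposite-strand overlap over at least 50 bases and had fewer reads of its own. In this reading 509 members had enough counts for the test, among 1453 genes. Ccnd1 rose, and Phkg1 and Cebpb fell (edgeR, adjusted p at most 0.05). That is 1 member higher in Acly-KD, where 0.206% of all genes tested passed in that direction, and 2 lower, where 0.206% passed. The same reads, counted at LTO1, Sumf2 and Tmem189, did not pass as deposited (edgeR adjusted p = 0.447 for each). The 2 fits differ in the genes included, and with them in scaling and adjustment. At an unadjusted p under 0.05 there were 38 members (7.47%) against 8.60% of all genes. The fold change was above 0 in 259 members, with a median of 0.01 that equals the median of all genes to this precision. Groups did not overlap in CPM for 65 members (12.8%), 33 higher and 32 lower, beside 14.7% of all genes. Neither of these shares of members, 7.47% and 12.8%, was above the share of all genes.

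Ccnd1 encodes cyclin D1, which drives entry into the cell cycle. The counts read as Ccnd1 mRNA are those at LTO1, a ribosome maturation factor gene that converges on it, and were 279, 137 and 241 in Acly-KD libraries 1 to 3 and 58, 181 and 121 in controls 1 to 3. As normalized levels these were 779, 624 and 609 CPM and 413, 420 and 330 CPM, so that every Acly-KD library was above every control. The log2 fold change was 0.80 (SE 0.17, 95% interval 0.45 to 1.15, edgeR adjusted p = 0.0366). The feature Ccnd1 itself had 6, 3 and 19 and 10, 13 and 13 reads, with a log2 fold change of -0.61 whose interval ran from -1.85 to 0.63. Of the 1100 shared bases, 995 are noncoding in both genes and 105 code for LTO1. The representative LTO1 transcript ends at 144921134, ahead of the 3' end of Ccnd1 printed above, so that the overlap is with longer annotated forms of LTO1.

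Phkg1 encodes the catalytic subunit of muscle phosphorylase kinase, which switches on glycogen breakdown. Its counts are those at Sumf2, a sulfatase-modifying factor gene, and were 44, 23 and 61 in Acly-KD and 31, 126 and 120 in control. The levels were 123, 105 and 154 CPM and 221, 293 and 327 CPM, with no overlap of the groups. The log2 fold change was -1.14 (SE 0.24, 95% interval -1.64 to -0.65, edgeR adjusted p = 0.0366). The feature Phkg1 had 5, 8 and 5 and 2, 6 and 5 reads and was not tested. This overlap is the 630 noncoding bases between the ends printed above.

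Cebpb encodes C/EBP beta, a transcription factor of metabolic and inflammatory genes. Its counts are those at Tmem189, the plasmanylethanolamine desaturase gene, and were 177, 94 and 309 in Acly-KD and 137, 442 and 395 in control. The levels were 494, 428 and 781 CPM and 975, 1026 and 1077 CPM, so that the Acly-KD libraries were all lower, with library 3 nearest to the controls. The log2 fold change was -0.84 (SE 0.18, 95% interval -1.21 to -0.47, edgeR adjusted p = 0.0422). The feature Cebpb had 6, 5 and 18 and 12, 27 and 12 reads, with a log2 fold change of -0.96 (SE 0.53). All 312 shared bases code for Cebpb protein and none for Tmem189. In the direction of transcription the representative Tmem189 transcript starts after them, at 167661556, so the overlap is with a longer annotated form of Tmem189. The first 30 of the shared bases read as follows.
Cebpb, chr2:167689511-167689540 on the plus strand: ctgggctaccaggcgacgccgagcggcagc

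The 3 calls depended on which libraries were fitted, while the fold changes kept their direction with any single library left out. Over these fits the log2 fold change ran from 0.68 to 0.88 for Ccnd1, from -1.31 to -1.01 for Phkg1 and from -1.15 to -0.69 for Cebpb. The -1.15 was without Acly-KD library 3. All 3 passed without Acly-KD library 3 (edgeR adjusted p 0.0168 for Ccnd1, 0.0169 for Phkg1 and 0.000797 for Cebpb), and Phkg1 also without control 1 (0.0369). Ccnd1 did not pass without Acly-KD library 1 or 2 or any single control (adjusted p 0.0644 to 0.194), with log2 fold changes of 0.68 to 0.88 in these fits. Cebpb did not pass in the same fits (0.0708 to 0.194), with -0.87 to -0.69. Phkg1 did not pass without Acly-KD library 1 or 2 or control 2 or 3 (0.0929 to 0.171), with -1.12 to -1.01. With Acly-KD libraries 1 and 2 both left out, which stood apart in the markers, the values were 0.64 for Ccnd1, -0.42 for Cebpb and -0.92 for Phkg1. These set a single Acly-KD library against 3 controls and are given with no test. A minimum count of 20 ended all 3 calls as well (adjusted p 0.0540 to 0.0895).

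The members next by p did not pass. Below control were Mapk1ip1, read at Ppp2r2d, with 20, 13 and 26 reads in Acly-KD and 21, 51 and 56 in control and a log2 fold change of -1.19 (edgeR adjusted p = 0.0731), Mafk, a small Maf transcription factor read at Tmem184a, with -0.81 (adjusted p = 0.114), and Hspa1a, an inducible HSP70 chaperone read at Gm20481, with -1.19 (adjusted p = 0.285). Above control were B3galt2, a galactosyltransferase read at Cdc73, with 43, 27 and 17 reads and 3, 15 and 7 reads and a log2 fold change of 1.82 (adjusted p = 0.0731), the guanine nucleotide exchange factor gene Arhgef11 read at Lrrc71 with 0.56 (adjusted p = 0.115), the ubiquitin-conjugating enzyme Ube2l3 read at Ydjc with 0.42 (adjusted p = 0.194), and the kinase Dapk3 read at 4930442H23Rik with 1.07 (adjusted p = 0.231). Irs1, the insulin receptor substrate read at Gm9747, had 463, 215 and 501 and 166, 811 and 696 reads and a log2 fold change of -0.50 with an adjusted p of 0.292.

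**Figure D3:**
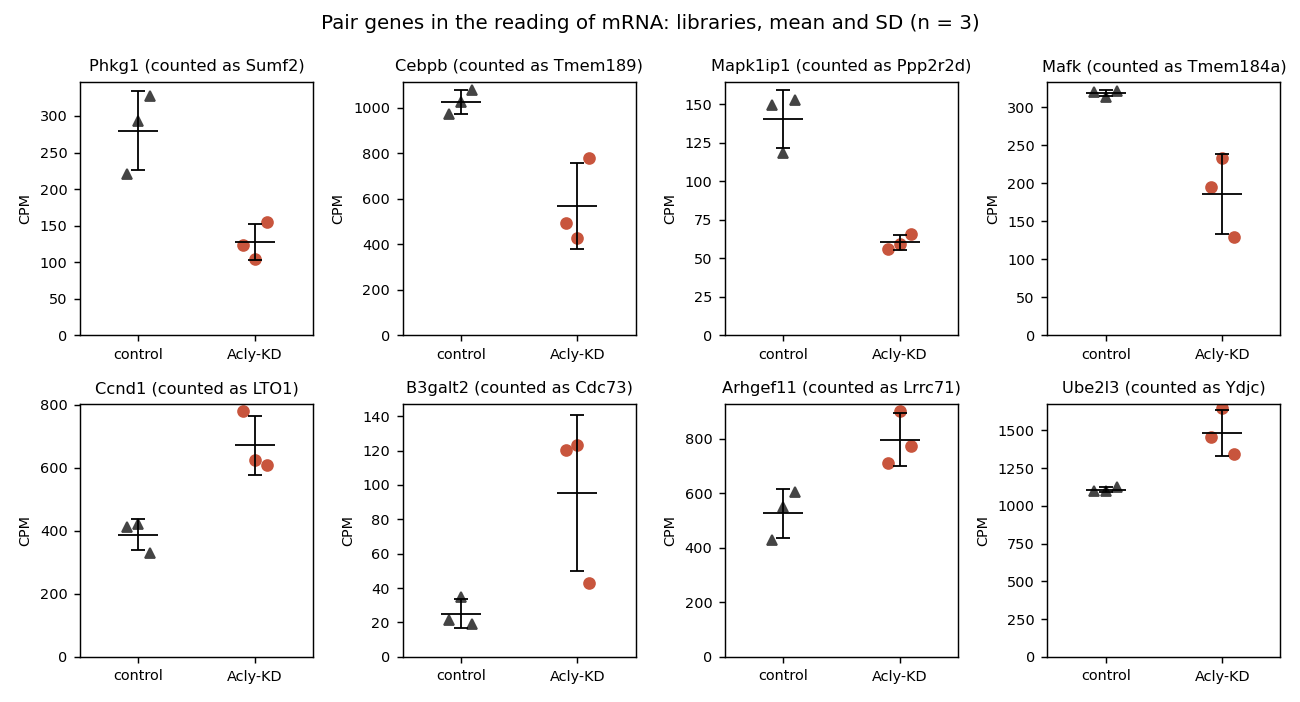
Level in CPM (axes from 0) of 8 genes in the reading of mRNA in control (triangles) and Acly-KD (circles) libraries, with a bar at the mean and whiskers of 1 SD (n = 3), each titled with the feature that held the counts. Ccnd1, Phkg1 and Cebpb passed the test, the other 5 did not, and for each of the 8 genes the symbols of the groups do not overlap.

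The abundant pairs showed small differences with narrow intervals. In the reading of mRNA, Acadvl was at 32090 ± 1353 CPM in Acly-KD and 32521 ± 1824 CPM in control (SD, n = 3), a log2 fold change of -0.02 with a 95% interval of -0.20 to 0.16. Pdha1 was at 23871 ± 1784 and 21817 ± 1644 CPM, a log2 fold change of 0.13 (-0.07 to 0.33). The log2 fold change was 0.04 for Vcl (-0.19 to 0.28), -0.16 for Cox4i1 (-0.37 to 0.06), 0.10 for Pgm1 (-0.17 to 0.38), -0.17 for Timp3 (-0.39 to 0.06), 0.18 for Lrrc14b (-0.08 to 0.43) and 0.22 for Acad11 (-0.03 to 0.47). None of these passed the test, with edgeR adjusted p of 0.610 to 0.952. Single libraries moved these small values: Timp3 was -0.061 without Acly-KD library 1 and -0.32 without Acly-KD library 2 (edgeR adjusted p = 0.370).

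Genes of 9 functional families were followed by symbol, and no member of any family passed in either reading. Vesicle traffic genes were above control in 10 of 12 tested in the reading of mRNA, with a median log2 fold change of 0.16 beside 0.01 for all genes. Arfgap2, a GTPase activator for ARF1 read at 1110051M20Rik, had -0.14, the endosomal protein gene Rab5if read at Sla2 had -0.05, and the Golgi GTPase Rab6a read at Mrpl48 had 0.20. Respiratory chain genes were above control in 4 of 6, with a median of 0.10, and ranged from -0.68 to 0.64. The highest of them, Uqcrc2, a core subunit of complex III read at Pdzd9, had 352, 144 and 219 reads in Acly-KD and 82, 150 and 188 in control (adjusted p = 0.408). The assembly factor Cox11 read at Tom1l1 had 0.34 (adjusted p = 0.581). Mitochondrial ribosome genes were above control in 2 of 5, with a median of -0.34; Mrps30 had -0.34, Mrps11 0.08 and Mrpl19 0.38. In Mrps11 and its partner Mrpl46, both members encode mitochondrial ribosome proteins, and 63, 32 and 69 and 26, 64 and 55 reads fell at Mrpl46.

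Fatty acid, pyruvate and citrate genes were above control in 4 of 8, with a median of 0.02, and led by Acadvl, Pdha1 and Acad11 described above. Cytosolic translation genes were above in 3 of 4, with a median of 0.10, where the initiation factors Eif3j1 and Eif3m had -0.09 and 0.19 and the ribosomal protein Rpl5 had 0.18. Splicing and RNA processing genes were above in 4 of 6 (median 0.03), with Hnrnpab at 0.04, Hnrnph3 at -0.09 and the helicase Ddx49 at 0.07. Transcription machinery genes were above in 2 of 6 (median -0.07), with Gtf3a at 0.05, the histone chaperone Supt16 at -0.36 and Polr3gl at -0.07. Ubiquitin genes were above in 4 of 11 (median -0.05), with Usp34 at 0.16 and Ube2e1 at 0.09. Sarcomere and calcium genes had only 2 members tested. Myl2, the ventricular myosin light chain, read at Ccdc63, had 850, 389 and 888 and 297, 962 and 582 reads, levels of 2374, 1773 and 2245 and 2113, 2234 and 1587 CPM, and a log2 fold change of 0.11. Myl12a, a nonmuscle myosin light chain, was read at Myom1, the M-band protein gene, with 20, 36 and 84 and 26, 81 and 39 reads and -0.13. The calcium channel gene Ryr3, read at Aven with 2 to 14 reads a library, was too low to test. Across the families, the gene was the lower feature of its pair in 11 of 13 vesicle traffic, 7 of 11 respiratory chain, 8 of 13 fatty acid and citrate, and 7 of 11 ubiquitin members in pairs with at least 100 reads. It was the lower feature in 3 of 6 mitochondrial ribosome, 4 of 8 cytosolic translation and 5 of 10 splicing and RNA processing members. The same held for 5 of 11 transcription and 2 of 3 sarcomere and calcium members. Every reciprocal pair has a lower and a higher feature by construction, and these counts were not tested against that.

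Myl2 is the one heart muscle marker that is a member, and its 2 features differed in their profile over the libraries. At the feature Myl2 there were 134, 158 and 613 reads in Acly-KD and 202, 719 and 385 in control. The counts at Ccdc63, given above, did not show the low values of Acly-KD libraries 1 and 2. The 2 genes share 60 bases. The log2 fold change was -0.65 at Myl2 (95% interval -1.90 to 0.61) and 0.14 at Ccdc63 (-0.20 to 0.49), and the difference between the features was not tested.

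Acly-KD libraries 1 and 2 were also low in features with no opposite-strand exon, and not in tail-to-tail members or the higher features of nested pairs. In head-to-head members and the lower features of nested pairs, both libraries lay below every control, although less far from 0 than in features with no opposite-strand exon. For each feature tested as deposited, the log2 CPM (with 0.5 added) in a library was set against its control mean. Features with no opposite-strand exon (659) had medians of -1.04, -0.37 and 0.24 in Acly-KD libraries 1 to 3 and 0.07, 0.13 and -0.12 in controls. The higher features of tail-to-tail pairs (312) had 0.18, 0.09 and -0.05, and their lower partners (110) had 0.14, 0.07 and 0.07 in the Acly-KD libraries. Higher features of head-to-head pairs (119) had -0.03, -0.14 and 0.06 and of nested pairs (48) 0.05, 0.11 and 0.03. Lower features of head-to-head pairs (28) had -0.27, -0.03 and 0.20, and the 7 lower features of nested pairs -0.53, -0.28 and 0.10. The members' median minus that of features with no opposite exon was 1.13, 0.43 and -0.25 in Acly-KD and -0.05, -0.12 and 0.13 in control, a difference between groups of 0.45. It did not pass an exact two-sided permutation test (p = 0.4, adjusted p = 0.48 over 6 such comparisons), in which 3 libraries against 3 cannot go below 0.1. The departure was in Acly-KD libraries 1 and 2, the libraries with the low heart muscle markers, and library 3 lay on the other side of the controls.

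**Figure D4:**
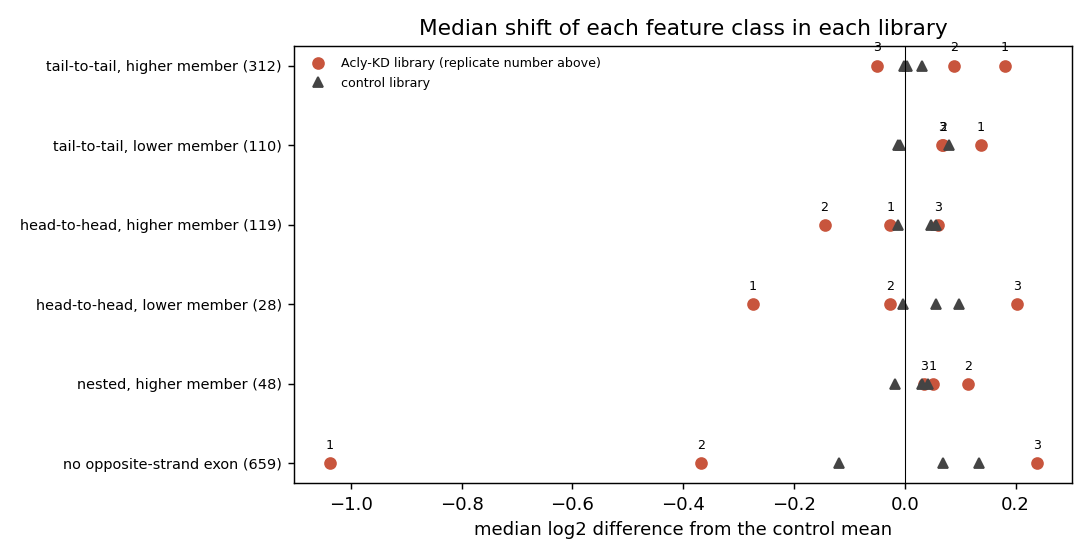
Median log2 difference from the control mean for the features tested in each class (number of features in brackets), with circles for Acly-KD libraries numbered 1 to 3 and triangles for controls. Medians of the pair classes drawn here lie between -0.27 and 0.20, while features with no opposite-strand exon reach -1.04 and -0.37 in Acly-KD libraries 1 and 2. The lower features of nested pairs are not drawn.

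Within pairs, the 2 features did not move together or apart as a rule. Both features were tested in 145 pairs, and their log2 fold changes had the same sign in 73 (Pearson r 0.09 and Spearman rho 0.07 across pairs, which share all libraries). The median log2 ratio of lower over higher feature, relative to its control mean, was -0.04, -0.04 and 0.13 in Acly-KD libraries and -0.04, 0.10 and -0.03 in controls, so that the libraries of the groups overlapped.

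The shares of reads were compared between groups over libraries. Members held 32.6%, 32.7% and 30.3% of nuclear counts in Acly-KD libraries 1 to 3 and 31.7%, 29.6% and 29.8% in controls, a difference of 1.52 percentage points (exact two-sided permutation test, p = 0.2, adjusted p = 0.667 over 8 shares). Within pairs, lower features held 5.31%, 5.75% and 6.95% in Acly-KD and 6.27%, 6.64% and 6.005% in control, a difference of -0.30 percentage points (exact p = 0.6, adjusted p = 0.686). Tail-to-tail pairs held 72.4%, 70.1% and 69.5% of pair counts against 69.7%, 69.2% and 68.8% (exact p = 0.2, adjusted p = 0.667). Head-to-head pairs held 12.3%, 12.2% and 14.3% against 13.5%, 13.5% and 14.4%, and nested pairs 15.3%, 17.7% and 16.2% against 16.8%, 17.3% and 16.8% (exact p = 0.3 and 0.5, adjusted p = 0.667 for each). Without Acly-KD libraries 1 and 2 the difference in the members' share was -0.02 percentage points and that in the lower features' share 0.64. The tail-to-tail share separated the groups fully once the most abundant pair was left out, with a difference of 1.67 percentage points beside 1.46 with it (exact p = 0.1, the smallest that this design allows), and the difference was 0.60 without Acly-KD library 1. No share passed the adjusted test.

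**Figure D5:**
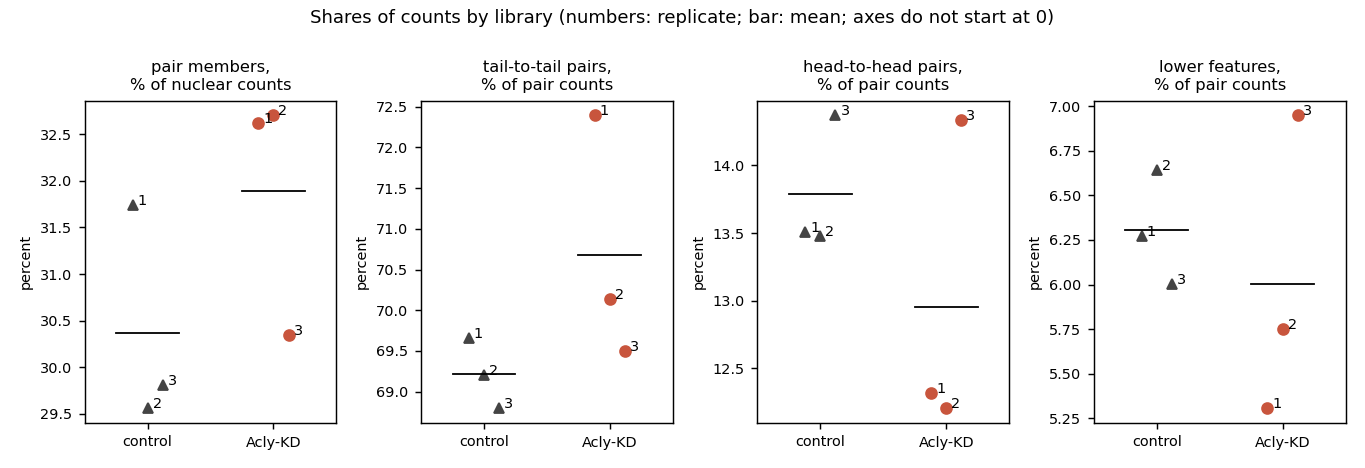
Percent of counts in each library (numbers give the replicate, horizontal bars the mean of 3, axes do not start at 0) for members among nuclear counts and for tail-to-tail pairs, head-to-head pairs and lower features among pair counts. The groups overlap in each panel, as in the 32.6%, 32.7% and 30.3% of Acly-KD against 31.7%, 29.6% and 29.8% of control for members.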

How the data were processed

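Poly-A RNA of 6 libraries was sequenced with strand marked, per the labels' protocols. Named in the submitters' processing notes are mm10 and, with no version, HTSeq, TopHat2, SAMtools, FastQC and DESeq2. The authors deposited whole-number counts for each gene, without normalization. Rows that name no gene stayed out of library sizes and tests. Identifiers were matched to GENCODE M21 (45143 of 46078). Same-group libraries differed by a chi-square per degree of freedom of 4.37 to 13.4, above counting noise, so all were kept as libraries.

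Each reading was fitted over all its features in edgeR 4.0.16 (R 4.3.3). The fit used TMM scaling, a filterByExpr minimum of 10, robust dispersion and adjustment by Benjamini-Hochberg. It was also run on simulated data, with the outcome not given here. CPM uses TMM library sizes. Intervals are at 95%. Alternatives included DESeq2 1.42.0, other scalings and filters, and each library left out.

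Members, gene lists and the reading of mRNA were chosen with earlier results of these data known. Named are members that passed, the 8 most abundant reciprocal pairs of each class, the 5 members with the smallest p in each direction and reading, the longest overlap of each class, up to 3 of the most abundant genes of each family (by CPM in the reading of mRNA) and Acly, each with its partner. Some pairs that this rule selects are not reported here.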

Additional observations from a re-analysis of the deposited data

How the results depend on the processing

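As deposited, 0 members passed, and the count moved to 12 (5 higher, 7 lower) without Acly-KD library 3 and to 4 (1 higher, 3 lower) with Acly-KD libraries 1 and 2 left out, an alternative added after seeing the data that leaves 1 Acly-KD library, assumed to vary like the controls, so that its counts are values rather than tests. It stayed at 0 under every other alternative run, so leaving out single libraries gave 0 to 12. In the reading of mRNA, where 3 passed, there were 10 with no filter on low counts (4 higher, 6 lower), 0 with a minimum count of 20 (35 at an unadjusted p under 0.05 in edgeR), 1 where the number of uniquely aligned reads was the library size, which was also added later, 0 with Acly-KD libraries 1 and 2 left out, and 0 to 8 with single libraries left out, the 8 without Acly-KD library 3. DESeq2's test, its size factors, at least 100 shared bases, a stricter rule for pairs and an exchange of counts in both directions each gave 3, and library totals without TMM gave 2. Where fewer libraries or genes were fitted, that is the alternative's own construction, and otherwise the cause was not tested. The shares of all features that passed under these alternatives are not given here, so these counts are not read as particular to members.

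No pairing by replicate number was seen, since same-numbered deviations correlated at -0.07, -0.02 and -0.18 and differently numbered ones at -0.11 to 0.18. With 3 libraries a group this cannot show that there is none. A fit with the replicate number as a block called 3 members in the reading of mRNA, all 3 shared with the fit without it, and 0 as deposited.

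The difference in the members' share reversed to -0.020 percentage points with Acly-KD libraries 1 and 2 left out. That in the lower features' share reversed to 0.044 without Acly-KD library 1, within -0.78 to 0.044 over single libraries left out, and to 0.64 without Acly-KD libraries 1 and 2. In the reading of mRNA, log2 fold changes near 0 changed sign. With library totals in place of TMM, Acadvl was 0.027. Scaled by uniquely aligned reads, Vcl was -0.036. With Acly-KD libraries 1 and 2 left out, Pdha1 was -0.014 and Vcl -0.16. With single libraries left out, Acadvl ran from -0.061 to 0.016 and Vcl from -0.025 to 0.13.

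At this depth 18.3% of lower features and 53.5% of protein-coding features with no opposite exon had no reads. The cause of this was not tested.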
